A study of Mus musculus with 2 samples.

Results

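The replication-dependent histone genes were examined in primary mouse myoblasts in which the H3K4 methyltransferase gene Mll1 (Kmt2a) had been deleted in culture. Their members were the probe sets whose gene symbols include a clustered histone gene, that is H1f1 to H1f5 or a numbered gene of the H2ac, H2bc, H3c or H4c series, formerly the Hist1h and Hist2h genes. This rule gave 52 of 28944 probe sets, which carry 62 such genes among the 21335 gene symbols on the array. Of the 52 probe sets, 26 carry 1 symbol in the annotation and are called here a gene's own probe set, and the other 26 carry several symbols and are called shared. Histone genes are near-identical copies, and whether the probes of a set with 1 symbol also bind RNA of other copies was not tested. The remaining 36 of the 62 genes have no probe set of their own and were measured only as part of such shared signals.

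The cells were a myoblast line with the genotype Rosa-CreER / MLL1 fl/fl, isolated from hind limb muscle by negative lineage selection and positive selection for α7-integrin, and cultured in Ham's F10 medium with 20% serum and 5 ng/ml FGF. Both cultures carried the floxed alleles and a Cre recombinase that enters the nucleus when 4-hydroxytamoxifen (4OHT) is bound, driven from the ubiquitous Rosa26 locus. The Mll1 cKO culture (labelled MLL1 KO) received 500 nM 4OHT with 0.01% ethanol for 7 days, the control received 0.01% ethanol alone for 7 days, and both then spent 3 days without either according to the labels, whereas the methods give a shorter washout. Each condition is 1 Affymetrix MoGene 1.0 ST array of the same cell line, which leaves the differences without a replicate check or a test, and an effect of the drug and an effect of the deletion cannot be told apart. Kmt2a itself read 9.44 in the control and 9.66 in the Mll1 cKO array on the log2 scale. Its single summary value covers the whole transcript and checks nothing about the excised exons, for which the sources give different numbers. The paper assessed the deletion by RT-qPCR, reports loss of the MLL1 protein, and plots array values along the Mll1 transcript. Differences are given as Mll1 cKO minus control in log2 RMA signal, a scale on which 1 unit is 2-fold.

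Replication-dependent histones supply the proteins that package newly made DNA. Their genes lie in clusters, have no introns as a rule, and are transcribed mainly in S phase. Most of their mRNAs end in a conserved stem-loop rather than a poly(A) tail, and are degraded when DNA synthesis stops. H2A, H2B, H3 and H4 form the nucleosome core, and H1 binds the linker DNA. The genes encode nearly the same proteins many times over, so that the total output of a class is the sum of many loci. The sources used here do not say how the labelling reaction primed RNA with and without a poly(A) tail.

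Histone probe sets were on balance slightly lower in the Mll1 cKO array, with single genes that stood well above or below the rest. Of the 52, 40 were lower, 11 were higher and H3c7 was listed at the same value in both arrays, and the median log2 difference was -0.13. Among all 28944 probe sets the median was -0.06, and 56.6% were lower and 40% were higher. Of the 40 lower members, 25 were shared probe sets, which overlap in their genes and are not independent. The 26 own probe sets had 15 lower and 10 higher, shares near those of all probe sets. Over 2-fold differences were few: H2bc3, an H2B gene, was lower and H2bc8, another H2B gene, was higher, beside 0.1% of all probe sets over 2-fold lower and 1.15% over 2-fold higher. At 1.5-fold there were 3 lower members (H2bc3, H1f5 and H2bc18) and 2 higher ones (H2bc8 and H2bc4), where the shares of all probe sets were 2.2% lower and 4.55% higher. In bulk RNA, fewer cells in S phase and less histone mRNA per cell cannot be told apart.

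The 2 kinds of probe set differed in their spread. Those of single genes ran from -1.00 to 1.02 on the log2 difference scale, with 15 lower and 10 higher and a median of -0.13. Of these 26, 16 had a log2 signal over 7 in the higher array, the level that the methods asked of lowered genes, and among these 12 were lower and 4 higher (median -0.26). The count of lower genes was 12 also when differences were centred, when a trend on signal was removed and when the arrays were quantile normalized again. The share of lower values among all probe sets past the same limit was not counted, so 12 of 16 has no matched background. The shared probe sets lay in a narrow band from -0.27 to 0.11, with 25 lower and 1 higher and a median of -0.13. The 24 of them with a mean signal over 11 were all lower, from -0.27 to -0.05, and 23 of the 24 were lower after centring. Among all 1050 probe sets with a mean signal over 11, which include these 24, 49.6% were lower and the median was 0.00. The shared probe sets of a class rest on probes for the same genes and are not independent measurements.

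**Figure D1:**
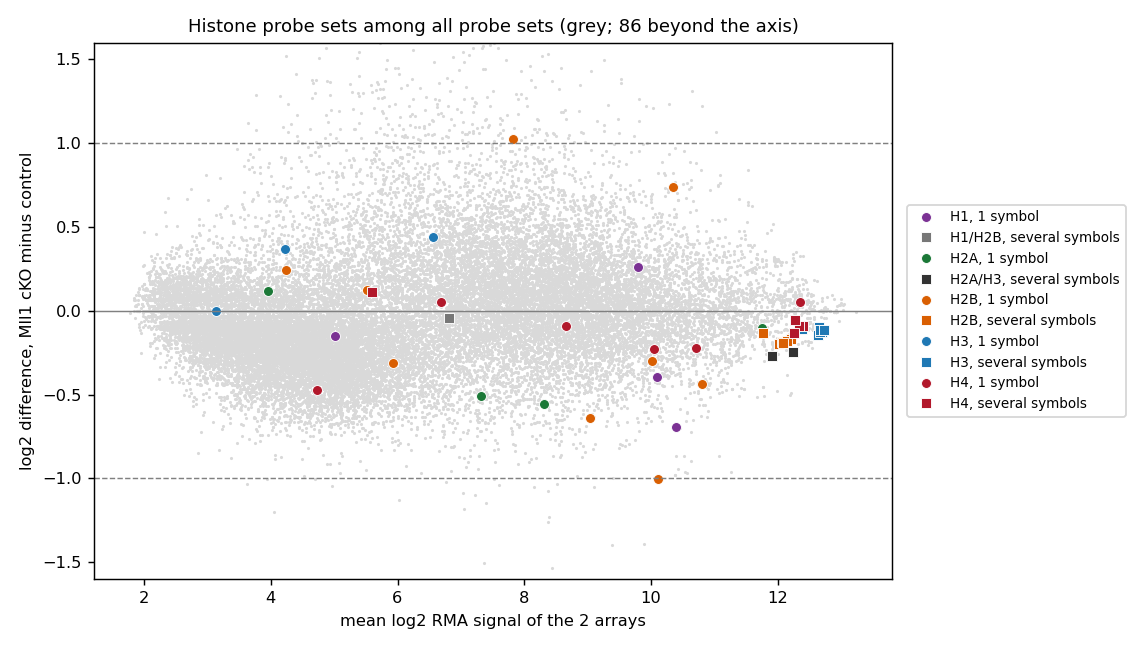
Difference between the Mll1 cKO and control arrays (log2, y axis) against the mean log2 RMA signal (x axis) for each histone probe set, coloured by class, with circles for probe sets of 1 gene and squares for shared ones. Grey points are all other probe sets, of which 86 lie beyond the y axis, and dashed lines mark 2-fold. The 24 shared sets with a mean signal over 11 form a tight group just below 0 at the right, and the other shared sets have weaker signals. Single genes spread from -1.00 to 1.02.

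Linker histone H1 was measured by 4 probe sets of single genes, 3 of them lower in the Mll1 cKO array. H1f5 (Hist1h1b), which encodes the H1.5 subtype, went from a log2 signal of 10.74 in the control to 10.05 in the Mll1 cKO array, a 1.62-fold lower level. A difference as low or lower was seen in 0.795% of all probe sets. H1f1 (Hist1h1a) had 10.30 and 9.91, a log2 difference of -0.40, and H1f3 (Hist1h1d), with the weaker signals of 5.08 and 4.93, had -0.15, a sign that turned when a trend on signal was removed or the arrays were quantile normalized again. H1f2 (Hist1h1c), which encodes the H1.2 subtype, was the exception at 9.67 and 9.93, 1.20-fold higher. H1f4 was measured only through a probe set that it shares with an H2B gene, whose signals were 6.83 and 6.79. The median log2 difference of the H1 class was -0.27.

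H2B held the extremes at both ends. H2bc3 (Hist1h2bb) read 10.61 in the control and 9.61 in the Mll1 cKO array (log2 signals), which is 2.00-fold lower, a difference as low as which 0.1% of all probe sets reached. It lay just past 2-fold, and its log2 difference of -1.00 became -0.94 after centring. H2bc18 (Hist2h2bb) followed at 9.36 and 8.72, 1.56-fold lower, then H2bc14 (Hist1h2bm) at 11.02 and 10.59, and H2bc9 (Hist1h2bh) at 10.17 and 9.87. These 4 genes were thus lower by log2 differences from -1.00 to -0.30, all at signals over 8.

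In the other direction, H2bc8 (Hist1h2bg) went from 7.31 to 8.33 and was 2.03-fold higher. This also lay just past 2-fold, and the log2 difference of 1.02 became 0.97 without the trend on signal and 0.93 after quantile normalization. H2bc4 (Hist1h2bc) went from 9.99 to 10.72 and was 1.67-fold higher. The gene annotation lists H2bc4, H2bc6 and H2bc8 as synonyms of each other, since they encode the same H2B protein. H2bc6, the other member of this group, has no probe set of its own. H2bc22 and H2bc21 were also higher, at the weak signals of 5.46 and 5.58 and of 4.12 and 4.37, while H2bc1 was lower at 6.09 and 5.78. In all, 5 of the 9 single H2B genes were lower and 4 higher, and their median difference was -0.30 (log2). The 7 shared H2B probe sets, assigned to 14 or 15 genes each, had control signals from 11.84 to 12.29 and Mll1 cKO signals from 11.71 to 12.12, and all 7 were lower, with differences from -0.20 to -0.13.

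**Figure D2:**
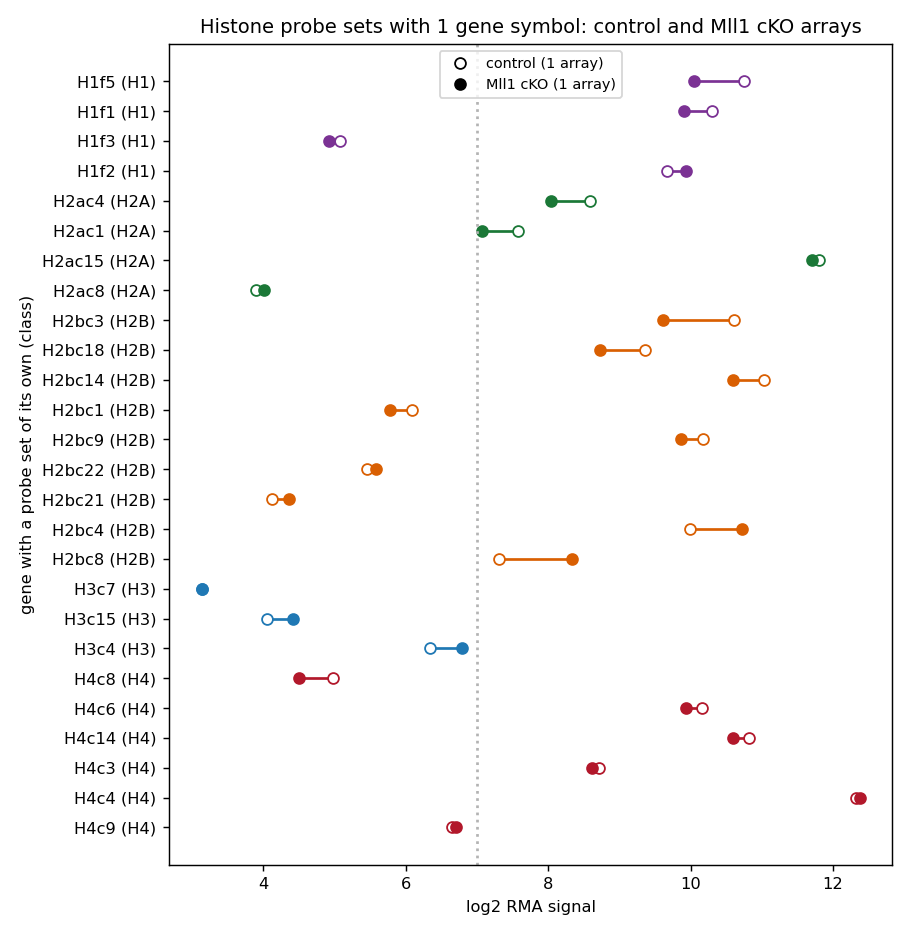
Log2 RMA signal (x axis) of the 26 histone genes with a probe set of their own (y axis, class in brackets), with open circles for the control array and filled circles for the Mll1 cKO array. Within a class genes are ordered by their difference, the dotted line marks a signal of 7, and the longest segments, H2bc3 and H2bc8, point in opposite directions (levels of different probe sets are not comparable).

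The promoters of the H1 and H2B genes with the most divergent differences are shown to allow their sequence to be read beside these values. They are RefSeq sequences of GRCm38.p6, from 180 bases before to 20 bases after the annotated start, 5′ to 3′ on the strand of the gene. H2bc3 (chr13:23746554-23746753, plus strand), H2bc18 (chr3:96269520-96269719, plus strand) and H1f5 (chr13:21780606-21780805, minus strand) were lower, and H2bc8 (chr13:23571220-23571419, plus strand) and H1f2 (chr13:23738627-23738826, plus strand) were higher. Capitals mark 4 motifs, searched on both strands: the TATA box TATAAA, the CCAAT box CCAAT, the octamer ATTTGCAT that is known from H2B promoters, and the box AAACACAA that is known from H1 promoters.
H2bc3: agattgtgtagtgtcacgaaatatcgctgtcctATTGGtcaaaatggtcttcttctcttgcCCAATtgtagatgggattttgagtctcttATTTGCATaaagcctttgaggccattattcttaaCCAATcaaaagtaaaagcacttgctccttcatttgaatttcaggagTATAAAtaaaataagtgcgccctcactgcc
H2bc18: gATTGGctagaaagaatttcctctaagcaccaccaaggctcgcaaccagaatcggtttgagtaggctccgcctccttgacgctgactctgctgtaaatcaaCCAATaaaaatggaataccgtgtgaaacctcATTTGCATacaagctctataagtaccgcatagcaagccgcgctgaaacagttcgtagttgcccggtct
H2bc8: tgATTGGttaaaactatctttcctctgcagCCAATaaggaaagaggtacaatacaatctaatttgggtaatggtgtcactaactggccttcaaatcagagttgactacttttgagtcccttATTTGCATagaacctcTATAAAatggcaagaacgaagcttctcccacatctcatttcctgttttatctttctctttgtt
H1f5: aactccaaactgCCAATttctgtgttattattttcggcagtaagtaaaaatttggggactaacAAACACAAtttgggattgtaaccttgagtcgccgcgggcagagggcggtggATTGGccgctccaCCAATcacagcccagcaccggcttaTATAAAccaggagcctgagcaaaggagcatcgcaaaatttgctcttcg
H1f2: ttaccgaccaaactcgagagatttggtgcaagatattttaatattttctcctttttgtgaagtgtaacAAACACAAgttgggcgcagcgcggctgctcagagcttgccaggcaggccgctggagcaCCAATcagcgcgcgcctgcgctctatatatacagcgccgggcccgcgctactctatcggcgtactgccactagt
H2bc3 and H2bc8, which differed in opposite directions, both hold the octamer, CCAAT boxes and a TATA box. H2bc18 holds the octamer and CCAAT boxes without a match to TATAAA. Both H1 promoters hold AAACACAA and CCAAT, and only that of H1f5 matched TATAAA.

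Of the 62 genes, 57 had a promoter in the RefSeq table, H2bc4 not among them, and 25 of the 57 matched TATAAA (43.9%), against 9.97% of 27025 promoters with the same window. A CCAAT match was found in 48 of the 57 (84.2%, against 29.8%), in all 14 H2B, all 17 H2A and all 5 H1 promoters, but in 3 of 11 H4 promoters. The octamer was found in 6 of 14 H2B and 5 of 17 H2A promoters, and in 1.29% of all promoters. AAACACAA was found in 3 of 5 H1 promoters, in those of H2ac4 and H2bc14, and in 1.25% of all promoters. H2A and H2B genes are often arranged back to back, and 9 such pairs have overlapping windows, so that some matches count for both genes. Matches of different motifs did not overlap in these promoters. By direction, the octamer was present in 6 of 14 lower and 2 of 8 higher single genes with a promoter, and CCAAT in 12 of 14 and 7 of 8. No H1, H3 or H4 promoter held the octamer, and the mix of classes differs by direction, so these octamer counts cannot be compared. Both higher genes with the octamer, H2ac8 and H2bc8, have overlapping windows, and so do H2ac1 and H2bc1 among the lower genes with it. A match is a description of these letters and not a binding site.

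H2A was measured by 4 probe sets of single genes, 3 lower and 1 higher, with a median log2 difference of -0.31. H2ac4 (Hist1h2ab) read 8.59 in the control and 8.04 in the Mll1 cKO array (log2 signals), 1.47-fold lower. H2ac1 (Hist1h2aa), known as a testis gene, had 7.58 and 7.07, 1.43-fold lower. H2ac15 had 11.81 and 11.70, and H2ac8 had the weak signals of 3.89 and 4.01. H2ac4 lies next to H2bc3, the gene with the lowest difference, whereas H2ac8, the back-to-back partner of H2bc8, was higher by 0.12 on the log2 scale where H2bc8 was higher by 1.02. A pair of shared probe sets, assigned to most H2A genes and to 1 H3 gene, went from 12.36 to 12.11 and from 12.05 to 11.78. Their differences, -0.25 and -0.27, were the lowest among the shared sets. Both also carry the symbol of H2ax, and the first that of H2aj, which are counted below among the replication-independent histone genes by probe sets of their own.

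Over own and shared probe sets together, the medians of H3 (-0.11) and H4 (-0.09) were nearer to 0 than that of H2B (-0.19). The H1 and H2A medians rest on own probe sets only, since their shared sets also carry another class, and are not comparable with these. Most of the H3 and H4 probe sets were shared ones with signals over 12, where the highest control signal of any probe set was 13.24. Whether differences are compressed at such signals was not tested. The 10 shared H3 probe sets, each assigned to the same 12 genes, had control signals from 12.45 to 12.78 and Mll1 cKO signals from 12.34 to 12.67, and all 10 were lower, with log2 differences from -0.14 to -0.10. The 3 probe sets of single H3 genes gave another picture at weaker signals, with H3c4 at 6.34 and 6.78, H3c15 at 4.05 and 4.41, and H3c7 at 3.13 in both arrays. Their median of 0.37 and the median over all 13 H3 probe sets therefore have opposite signs, and 0.37 was farther from 0 than the median of the own probe sets of any other class. The annotation lists 10 H4 genes as synonyms, since they encode the same protein, and 5 of 6 shared H4 probe sets were lower, with the lowest difference at -0.13. The sixth, with weak signals of 5.54 and 5.65, was higher by 0.11. Of the single H4 genes, H4c8 had the lowest difference, at the weak signals of 4.97 and 4.50, and H4c6 and H4c14 were lower at 10.16 and 9.94 and at 10.82 and 10.60. H4c3 had 8.71 and 8.62, H4c4 had 12.32 and 12.37, and H4c9 had 6.65 and 6.70.

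The signs were also read along the chromosome, in stretches cut after the values were seen, so that their separation is no test of position. Of the 62 genes, 52 belong to the large Hist1 cluster and 10 to the Hist2 cluster. The 7 measured genes in a row from H2ac8 to H1f2 had 6 higher and 1 lower member and a median log2 difference of 0.26, and they include H2bc8 and H2bc4. The next 5 measured genes, from H2bc3 to H2ac1, were all lower, with a median of -0.51, and of the 10 measured genes before H2ac8 7 were lower, 2 were higher and H3c7 was equal. H1f2 and H2bc3, on either side of this boundary, are separated in the annotation by a single H3 gene without a probe set of its own. These stretches were chosen after the values were seen. Among the 6 higher members, H2ac8 (3.89 and 4.01) and H3c4 (6.34 and 6.78) had weak signals, and H4c4 was higher by only 0.05. The 4 single genes of the Hist2 cluster had 2 lower (H2bc18 and H4c14) and 2 higher members (H3c15 and H2bc21), and both higher ones had log2 signals under 5.

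**Figure D3:**
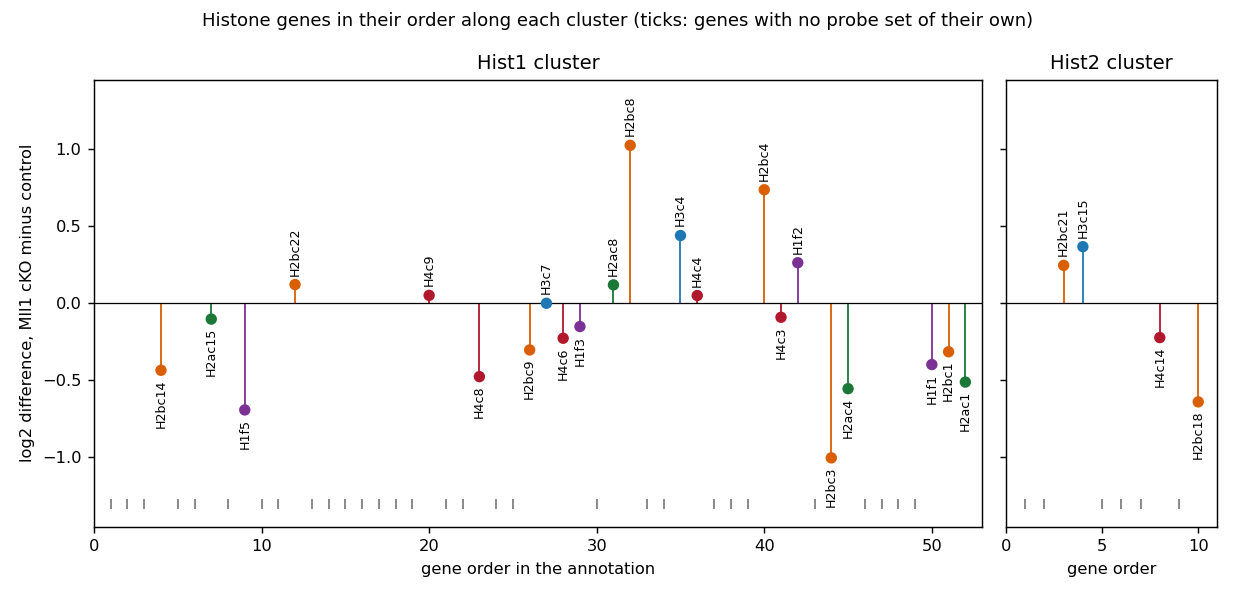
Log2 difference between the Mll1 cKO and control arrays (y axis) for histone genes with a probe set of their own, at their rank in the gene order of the Hist1 and Hist2 clusters (x axis), coloured by class as in the other plots, with short ticks for genes without a probe set of their own. The stretch from H2ac8 to H1f2, chosen after the values were seen, holds 6 higher genes and 1 lower gene. The 5 measured genes after it are all lower.

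Some replication-dependent histone genes can also make polyadenylated mRNA, which does not depend on S phase. Of 4 members whose human counterparts are known for this, 3 had a probe set of their own, and all 3 were higher, where 40% of all probe sets were: H2bc4 by 0.74, H1f2 by 0.26 and H2bc21, at weak signals, by 0.25 on the log2 scale. In RefSeq, 3 of the 26 single genes span over 1000 bases, which is longer than the coding unit of a histone. These genes, H2bc4, H2bc21 and H2bc22, share 2 members with the group above, so that the 2 counts are not separate observations. They were all higher, with a median of 0.25, whereas the 23 shorter genes had 15 lower, 7 higher and 1 equal and a median of -0.22. Of the long genes, H2bc21 (4.12 and 4.37) and H2bc22 (5.46 and 5.58) had weak signals, and the median is the value of H2bc21. The shorter genes include H2bc8. Of the genes known for their expression in testis, H2ac1 and H2bc1 had log2 differences of -0.51 and -0.31, and H1f6, which is not a member by the rule, had the weak signals of 4.44 and 4.34.

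Genes that work with the histones were set beside them. Among all 19938 named genes, 55.6% were lower and 41.6% higher, and 2.01% were lower and 4.86% higher by over 1.5-fold. Of 9 measured replication-independent histone genes, which are not tied to S phase as a group, 5 were lower and 4 higher, none over 1.5-fold, with a median of -0.11 (log2 difference). The lowest was H2ax, the variant that is phosphorylated at DNA breaks, at 8.95 and 8.41. Of 19 factors that transcribe histone genes or process the 3′ end of their mRNA, 16 were lower and 3 higher, with a median of -0.25 and none over 1.5-fold. The largest difference in that list was upward, for Lsm10, a subunit of the U7 small nuclear ribonucleoprotein, at 7.31 and 7.82. Slbp, which binds the histone stem-loop and was chosen for this role after its value was seen, had 8.52 and 8.13, a log2 difference of -0.39, and Npat, the coactivator of histone transcription, had 8.94 and 8.83.

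Histone chaperones were lower in 18 of 22 cases, with 3 higher, 1 equal and a median log2 difference of -0.11, where 55.6% of all 19938 named genes were lower and 41.6% were higher. The 3 chaperones over 1.5-fold lower, beside 2.01% of named genes lower and 4.86% higher by that much, all act in replication-coupled assembly. These were Chaf1a (8.26 and 7.58) and Chaf1b (9.64 and 8.98), subunits of chromatin assembly factor 1, and Asf1b (10.46 and 9.83), which hands H3 and H4 to it. Of 24 DNA replication genes, 23 were lower, 10 of them over 1.5-fold, with a median of -0.49. The lowest were Lig1, a DNA ligase, at 8.95 and 8.16, Cdc6, an origin licensing factor, at 7.67 and 6.95, and Gins1, a helicase subunit, at 7.61 and 6.91. All 7 genes of G2 and mitosis were lower, with a median of -0.53, and Bub1, Aurkb and Mki67 were 1.77-fold, 1.62-fold and 1.52-fold lower. The 8 reference genes had a median of 0.00, and the farthest from 0 was Sdha at -0.18. The histone median of -0.13 lay between that of the reference genes and that of the DNA replication genes, as did the median of all probe sets at -0.06. No test of these distances was possible.

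**Figure D4:**
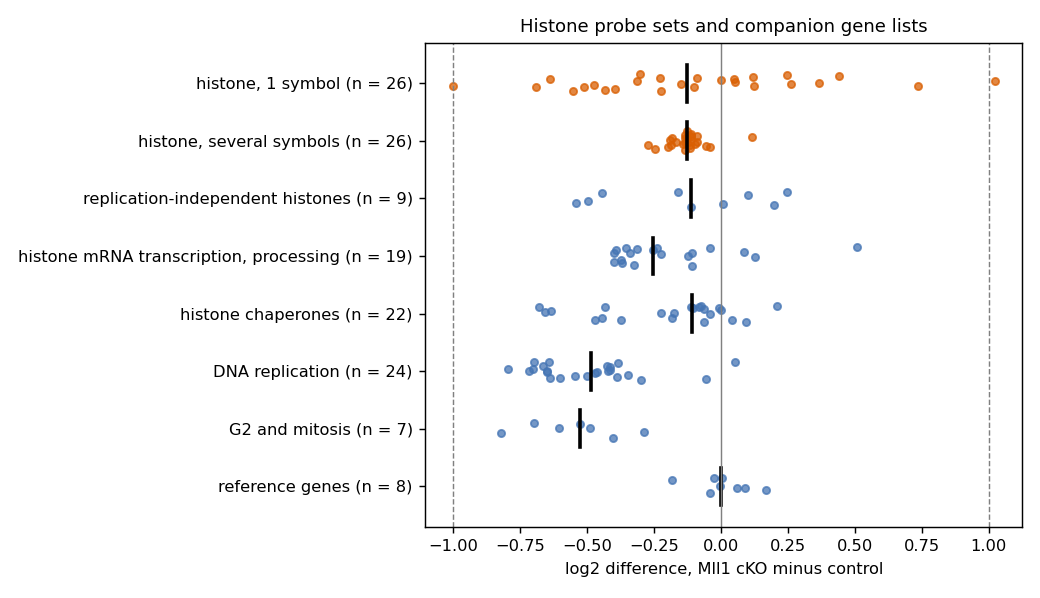
Log2 difference between the Mll1 cKO and control arrays (x axis) for histone probe sets (orange) and genes of the companion lists (blue), with a black bar at each median and the number of points in brackets and dashed lines at 2-fold. Points of the DNA replication and mitosis lists lie mostly between -0.3 and -0.8, whereas shared histone probe sets gather near -0.13 and single histone genes spread to both sides.

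The labelled cell type was checked against its markers. All 9 myoblast markers had a log2 signal over 7 in the control array and 8 of them in the Mll1 cKO array. Myf5, a myogenic regulatory factor, went from 9.51 to 6.14 and was 10.3-fold lower, Itga7, the gene of the integrin used to select the cells, had 10.06 and 9.66, Pax7, a satellite cell factor, had 10.29 and 10.02, and Myod1 had 12.15 and 12.27. None of 4 endothelial or 4 immune markers and 1 of 6 fibroblast markers, Col3a1, exceeded 7. Of 4 markers of smooth muscle cells and pericytes, Acta2 exceeded 7 in both arrays. Rgs5 did so only in the Mll1 cKO array, with 6.95 in the control and 7.74 in the Mll1 cKO array, 1.74-fold higher. Beside the histone differences, 5 of 6 markers of differentiating muscle cells were higher, with control signals from 5.87 to 9.83 and Mll1 cKO signals from 5.76 to 10.76 and a median log2 difference of 0.60. Among these, Mymk was 2.21-fold, Acta1 1.91-fold and Myog 1.56-fold higher, while Ckm was lower at 5.87 and 5.76. The paper, which also measured Myog by RT-qPCR, describes its mRNA level as unchanged. Whether differentiating cells, which leave the cell cycle, have a part in the histone values was not tested.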

How the data were processed

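RNA of 1 control and 1 Mll1 cKO culture was hybridised to MoGene 1.0 ST arrays. The authors made the deposited log2 signals of 35557 probe sets with RMA (background correction, quantile normalization between arrays, one summary value per probe set), in a software version that the sources used here do not give. Because both arrays were forced to one distribution, a shift common to all genes would not be seen. The lowest unbroken run of probe set numbers, 6613 control probe sets, was left out, which left 28944. Symbols came from the platform annotation: 21789 probe sets had 1 symbol, 1621 several and 5534 none. Symbols of single-gene probe sets were updated by gene number to RefSeq (GRCm38.p6), which matched all 62 member symbols, and a gene outside the family is the mean of its probe sets. The main call was a difference over 2-fold, as in the methods. With 1 array per condition there was no standard error, p-value or test, and precision is limited by the number of arrays.

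The named genes are members over 2-fold, the 3 lowest, 2 highest and strongest single genes of each class, members with polyadenylated or testis expression, extreme shared probe sets, and genes of the companion lists over 1.5-fold, or the largest difference of a list with none. The DNA replication list is given only by counts, its median and its 3 lowest genes. Members and lists were chosen with earlier results of these data known. Other genes named for their position, role or partner were chosen after their values were seen. The signal limit of 11 for shared probe sets was also chosen then. Alternatives tried were a 1.5-fold or a 3-fold limit, a signal over 7 in the higher array, only probe sets with 1 symbol, equal signal pairs counted as 1, genes as the unit, the probe set of each gene with the highest signal, inclusion of control probe sets, centring, removal of a lowess trend (span 0.3) and renewed quantile normalization. The scripts were tested on simulated data. Python 3.11.15, numpy 2.4.6, pandas 2.3.3, statsmodels 0.14.6 and matplotlib 3.10.9 were used.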

Additional observations from a re-analysis of the deposited data

How the results depend on the processing

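Of 126 recomputed counts and medians, 91 kept their sign and stayed within 1.5 times. With a 1.5-fold cut-off 3 members were lower and 2 higher, and with 3-fold 0 and 0. Centring left 0 over 2-fold lower, and trend removal and quantile normalization each left 0 over 2-fold higher. Centring moved the histone median to -0.070, H3 to -0.054, H4 to -0.031, the Hist1 and Hist2 clusters to -0.075 and 0.070, replication-independent histones to -0.055, chaperones to -0.049 and reference genes to 0.059. Trend removal moved H1 to -0.18 and Hist2 to 0.10. Quantile normalization moved H3 to -0.066, H4 to -0.14 and Hist2 to 0.089, and turned the reference genes to -0.011, as did the probe set with the highest signal (-0.010). Signal over 7 left 4 higher members and gave medians of -0.51 for H2A and, reversed, -0.43 for Hist2. Probe sets with 1 symbol, or genes as the unit, gave 15 lower members and medians of -0.30 for H2B, -0.16 for H4 and, reversed, 0.37 for H3. With control probe sets included, 78 probe sets were over 2-fold lower and 931 higher. Of single genes, H1f3 turned to 0.05 and 0.00 and H4c9 to -0.03 (after quantile normalization). No paired analysis was possible because each group holds 1 array. Weak signals and 1 array per condition limit every value.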

Other observations

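In 3 cases, member probe sets with several symbols carried the same pair of signals, and H3c7 carried 3.13 in both arrays, as 991 of 28944 probe sets carried equal values.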
